A study of Mus musculus with 10 samples.

Results

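Fatty acid and triglyceride synthesis was followed through 33 genes in the livers of 10 mice, 5 homozygous for human APOE3 and 5 homozygous for human APOE4. The genes were taken by function, and the rule that picks them uses no measured value, but they were chosen with earlier results of these data known. Each is a factor, enzyme, carrier or regulator of lipogenesis, chain elongation, desaturation or glycerolipid assembly. All 33 were named by at least 1 probe set carrying a single gene symbol, out of 18193 genes named in this way on the array, and 71 probe sets belonged to them. Where a gene had several probe sets, the brightest on average over the 10 arrays stands for it. For 31 of the 33 genes that average was 4 log2 or more, and below this level values are treated as near background. Mogat1 and Pnpla3 did not reach it. The comparison asks how the expression of these genes differs between APOE4 and APOE3 livers.

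The mice were females on a C57BL/6 background, 3 months of age, and every animal carried a human gene in place of mouse Apoe, driven by the mouse promoter (alleles Apoetm2(APOE*3)Mae and Apoetm3(APOE*4)Mae). Both groups therefore lacked mouse ApoE, and no animal with the mouse gene was compared here. Both ate the same semi-synthetic high-fat diet, with 41% of its energy from milk fat, and with 2 g/kg cholesterol, 32.8% sucrose and 14.5% corn starch. The labels differ on how long it was fed, 6 weeks in one text and 2 months in another. Total liver RNA from 1 extract per animal was hybridised to 1 array per animal. Whether the mice were fasted, and the hour of collection, is not stated in those texts.

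In the liver, citrate exported from mitochondria is cleaved to acetyl-CoA, which acetyl-CoA carboxylase and fatty acid synthase turn into palmitate. Elongases and desaturases then lengthen and unsaturate the chain, and acyltransferases join the products to a glycerol backbone to give phosphatidic acid, diacylglycerol and finally triglyceride. Insulin acts on this programme largely through SREBP-1c, the product of Srebf1, and sugar through ChREBP, the product of Mlxipl. Liver is a major site of the pathway, and dietary fat, cholesterol and sucrose all bear on it.

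Before the values, the upstream sequence of 4 members is shown, namely Fasn and the genes whose correlation with Fasn over the animals passed the test described further on. For 27 of the 33 members RefSeq start sites on GRCm38.p6 gave a window of 250 bases before the start. Dgat1, Dgat2, Elovl3, Fads1, Scd1 and Scd2 were not listed there. The windows lie at chr11:120824548-120824797 on the minus strand for Fasn, at chr11:84195188-84195437 on the plus strand for Acaca, at chr11:100528001-100528250 on the minus strand for Acly and at chr3:129532136-129532385 on the plus strand for Elovl6. Each is written 5′ to 3′ and ends at the base before the annotated start. Capitals mark matches on either strand to the CCAAT box (CCAAT), the GC box (GGGCGG), the palindromic E-box (CACGTG) and the core of a sterol regulatory element (TCACNCCAC).
Fasn: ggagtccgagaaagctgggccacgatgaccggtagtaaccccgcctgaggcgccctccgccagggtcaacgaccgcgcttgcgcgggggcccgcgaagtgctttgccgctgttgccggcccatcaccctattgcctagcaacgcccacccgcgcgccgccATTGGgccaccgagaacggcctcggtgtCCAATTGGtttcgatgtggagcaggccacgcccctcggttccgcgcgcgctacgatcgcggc
Acaca: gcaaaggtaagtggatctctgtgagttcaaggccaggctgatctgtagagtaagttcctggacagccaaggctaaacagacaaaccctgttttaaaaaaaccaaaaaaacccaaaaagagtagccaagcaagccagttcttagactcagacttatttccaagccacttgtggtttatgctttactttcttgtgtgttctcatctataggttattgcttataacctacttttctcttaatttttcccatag
Acly: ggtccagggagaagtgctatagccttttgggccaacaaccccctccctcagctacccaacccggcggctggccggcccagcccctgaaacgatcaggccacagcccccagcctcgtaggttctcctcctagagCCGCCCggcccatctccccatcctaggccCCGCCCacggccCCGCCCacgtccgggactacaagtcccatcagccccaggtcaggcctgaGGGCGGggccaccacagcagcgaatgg
Elovl6: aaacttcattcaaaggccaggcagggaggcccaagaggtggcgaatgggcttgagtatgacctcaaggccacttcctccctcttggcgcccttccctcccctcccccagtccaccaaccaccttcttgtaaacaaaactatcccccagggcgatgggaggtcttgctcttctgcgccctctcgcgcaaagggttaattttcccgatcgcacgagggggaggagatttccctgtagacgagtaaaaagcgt
The Fasn window held 3 matches to the CCAAT box, the nearest 2 of which overlap, beginning 62 and 59 bases before the start. The Acly window held 4 matches to the GC box. The Acaca and Elovl6 windows held none of the 4 motifs, so no motif searched was common to these 4 windows. Among all 32851 windows of the same length, 33.8% held a CCAAT box and 32.7% a GC box, while 6.02% held the E-box and 1.05% the sterol element core. The E-box occurred in the windows of Elovl5, Lpin2, Mlxipl and Slc25a1, and the sterol element core in that of Mlxipl alone among the members. A match describes these letters only, and its absence covers only this window and this annotated start.

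The single probe set of mouse Apoe, the replaced gene, lay between 0.96 and 1.12 log2 in APOE3 and between 1.00 and 1.19 in APOE4, a background level in both genotypes, and cannot tell the human isoforms apart. Of 7 hepatocyte markers sought, 6 were named on the array and all 6 were above background; their summed level lay between 16.46 and 16.68 log2 in APOE3 and between 16.56 and 16.64 in APOE4. Of 9 Kupffer cell markers, 8 were below 0 in the comparison, with none past the threshold, while 60.9% of all tested probe sets were above 0. The summed level lay between 12.60 and 13.75 log2 in APOE3 and between 12.44 and 13.24 in APOE4. APOE3 replicate 4 was the highest APOE3 animal in each of the 9 markers. Its summed level was 13.75, against 13.01 or less in the other APOE3 animals, and the count without it is not given here. Of 6 endothelial markers 3 were above 0 and 3 below, with summed levels between 10.65 and 10.90 log2 in APOE3 and between 10.67 and 11.16 in APOE4. Among them Cdh5 was at -0.34 log2 (SE 0.12, adjusted p = 0.565 in limma) and Lyve1 at 0.35 (SE 0.27, adjusted p = 0.755 in limma). Of 6 stellate cell markers 4 were tested, 2 above 0 and 2 below, with summed levels between 9.73 and 10.81 in APOE3 and between 10.27 and 11.22 in APOE4. Lrat was at 0.75 log2 (SE 0.21, adjusted p = 0.452 in limma), while Col3a1 was at 0.01, Reln at -0.01 and Pdgfrb at -0.26. All 4 cholangiocyte markers were near background. Of 4 adipocyte markers on the array Adipoq, Lep and Retn were under 4 on every array, and Fabp4 alone was above it. The difference between the 3′ and 5′ probe sets of Actb, a sign of RNA integrity, lay between 2.22 and 3.20 log2 in APOE3 and between 2.46 and 2.97 in APOE4.

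No member differed between the genotypes at the adjusted threshold. Over all 14732 tested probe sets limma called 12, or 0.0815%, at a Benjamini-Hochberg adjusted p under 0.05, and over the 31 tested members it called 0, with a smallest adjusted p of 0.584. An unadjusted p under 0.05 was reached by 1 member, Dgat2, which is 3.23% of those tested against a background of 8.00%. In 0 of the 31 members did the 5 animals of one genotype all lie on one side of the other 5, against 2.02% of all tested probe sets. On the side of direction, 25 of the 31 members had a higher mean in APOE4, or 80.6% against 60.9% of all tested probe sets. Their median log2 difference was 0.151, beside 0.047 over all tested probe sets. Of 22 further tested probe sets of these genes, 7 had the opposite sign to the brightest probe set of the gene. Expressed by role, 8 of 9 members of fatty acid synthesis were above 0 with a median of 0.243, and 8 of 9 tested members of glycerolipid assembly with a median of 0.112. Of the 11 elongation and desaturation members 7 were above 0, with a median of 0.057. The members share their 10 arrays and are not independent, so these counts describe the list and carry no test. Without APOE4 replicate 1 the median of the members was 0.067, and without APOE3 replicate 2 it was 0.041. The array median over the tested probe sets was higher on every APOE4 array (7.15 to 7.16 log2) than on every APOE3 array (7.05 to 7.13). With each array centred on that median, 22 of the 31 members were above 0 and their median was 0.095. The share of all tested probe sets above 0 after centring is not given here. As these are whole livers, fewer cells of a type and less RNA per cell cannot be told apart.

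**Figure D1:**
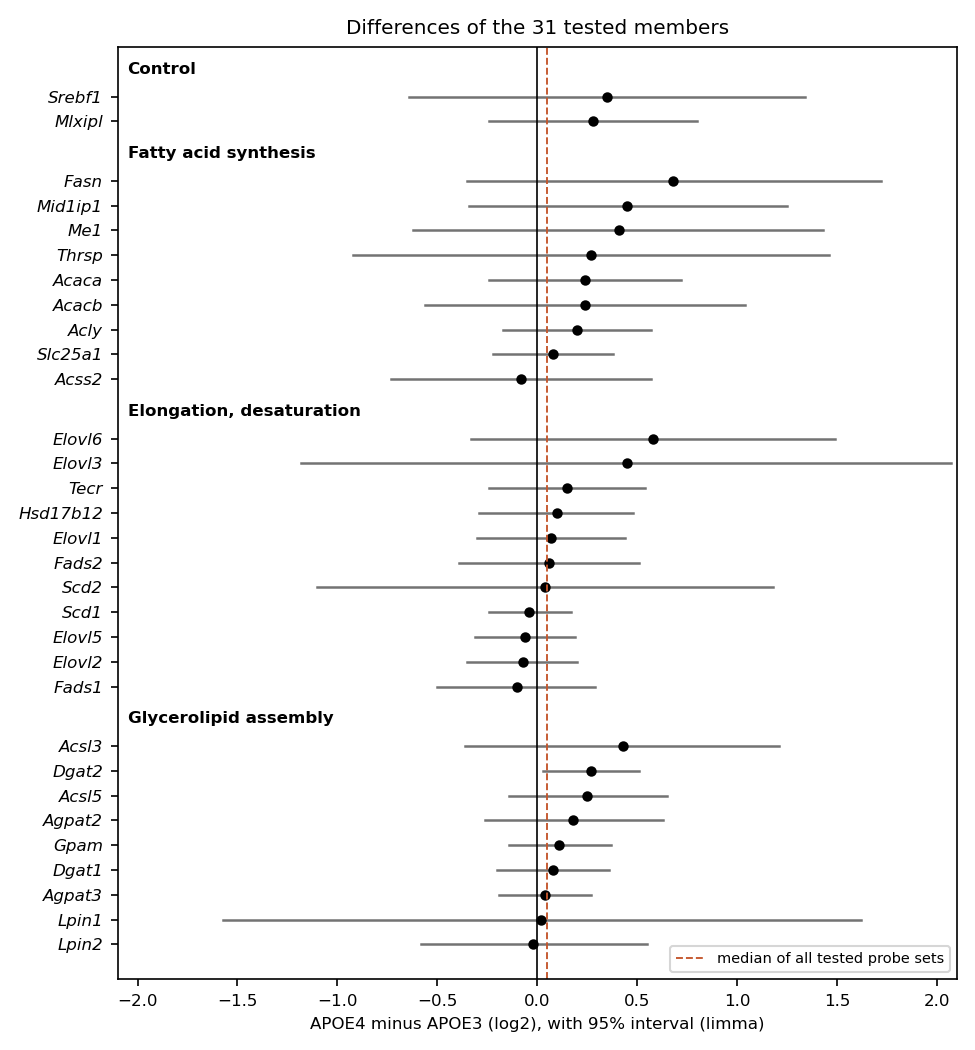
Log2 difference between APOE4 and APOE3 for each of the 31 tested members, grouped by role, with its 95% interval from limma (5 animals per genotype); the dashed line marks the median of all tested probe sets, 0.047. Most points lie to the right of 0, and only the interval of Dgat2, from 0.03 to 0.51, does not include it.

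Single animals stood out across many members. APOE4 replicate 1 had the highest value of all 10 animals in 13 of the 31 members and was above the 10-animal mean in 28. Its mean deviation over the members was 0.487 log2, against 0.161 or less in every other animal. At the other end stood APOE3 replicate 2 at -0.298, the lowest animal in 8 members, and APOE4 replicate 4 at -0.292, the lowest in 6. Those 2 animals also had the widest gap between the 3′ and 5′ probe sets of Actb, 3.20 and 2.97 log2, and of Gapdh, 0.73 and 0.62 log2. The part of RNA integrity in the members' values was not tested. Between animals of one genotype, the typical (median) SD was 0.357 log2 for a member and 0.231 for a tested probe set of any gene, and 12 of the 31 members were among the 10% of tested probe sets with the widest spread.

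**Figure D2:**
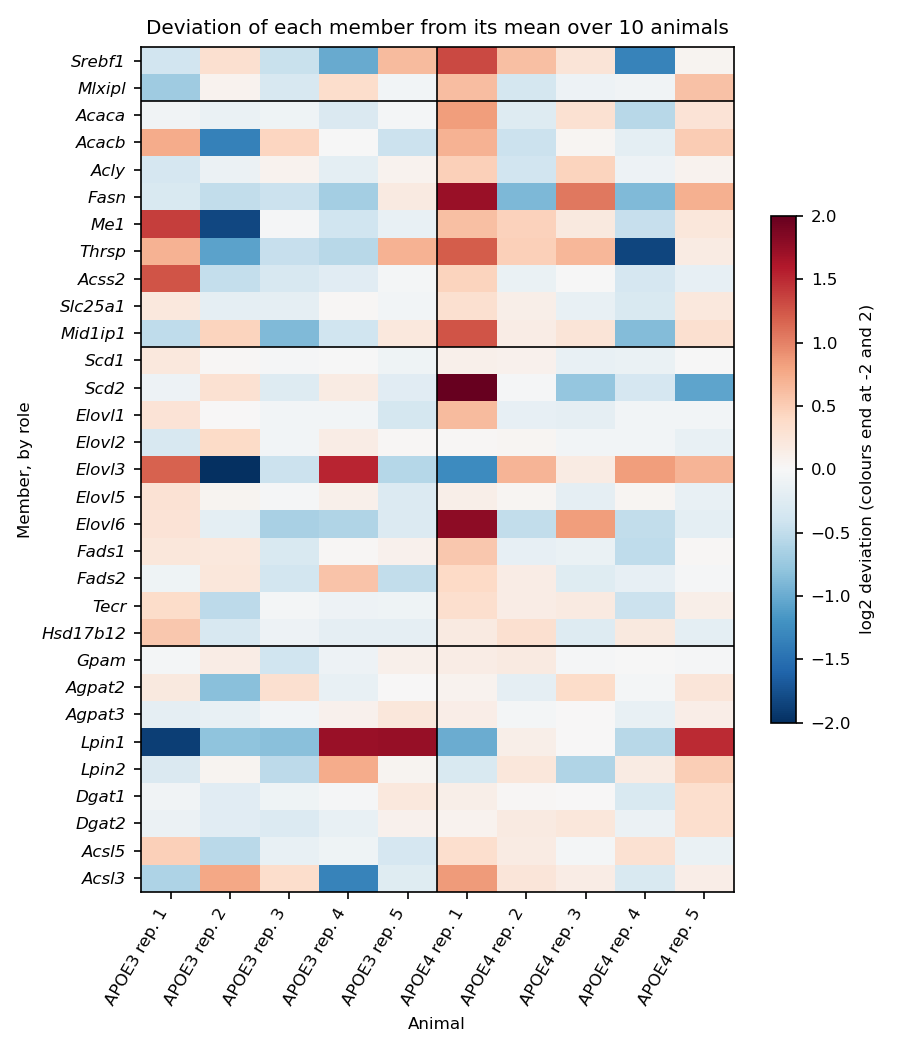
Deviation of each tested member from its own mean over the 10 animals (log2, red above and blue below, colours ending at -2 and 2), with members in rows by role and animals in columns. The column of APOE4 replicate 1 is red in 28 of 31 rows, and the rows of Elovl3 and Lpin1 show strong colours in both genotypes, that of Me1 mainly in APOE3.

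Among the factors that control the programme, Srebf1, which encodes SREBP-1, read 8.75, 9.46, 8.68, 8.13 and 9.76 log2 in APOE3 replicates 1 to 5. In APOE4 it read 10.45, 9.73, 9.39, 7.80 and 9.18. The APOE4 animals held both the highest and the lowest value, and the genotypes overlapped. The difference was 0.35 log2 (SE 0.45, 95% interval -0.64 to 1.34; adjusted p = 0.866 in limma), 0.067 without APOE4 replicate 1 and 0.728 without APOE4 replicate 4. Mlxipl, which encodes the sugar-responsive factor ChREBP, read 8.60, 9.38, 8.99, 9.66 and 9.26 log2 in APOE3 and 9.93, 8.97, 9.22, 9.24 and 9.90 in APOE4. APOE4 replicates 1 and 5 lay above every APOE3 animal while the remaining 3 lay within the APOE3 range. Its difference of 0.28 log2 (SE 0.24) had an adjusted p of 0.780 in limma, and was 0.131 without APOE3 replicate 1.

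Fatty acid synthase, Fasn, showed the largest difference among the members and did not pass. It read 8.61, 8.42, 8.49, 8.24 and 9.10 log2 in APOE3 replicates 1 to 5, against 10.64, 8.01, 9.96, 8.03 and 9.63 in APOE4. Replicates 1, 3 and 5 of APOE4 lay above all 5 APOE3 animals, and replicates 2 and 4 lay below all of them. The mean was 8.57 ± 0.33 in APOE3 and 9.25 ± 1.18 in APOE4 (SD, n = 5 each), a difference of 0.68 log2 (SE 0.47) or 1.60-fold, with an adjusted p of 0.731 in limma. Without APOE4 replicate 1 the difference was 0.336 log2. The spread of Fasn was thus wider in APOE4, with SDs in a ratio of 3.63; this ratio was not tested, and of the 31 members 15 had the larger SD in APOE4, as did 5755 of the 14732 tested probe sets (39.1%).

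Acetyl-CoA carboxylase 1, Acaca, which commits acetyl-CoA to fatty acid synthesis, followed a similar order of animals. It read 8.02, 7.95, 8.00, 7.80 and 8.04 log2 in APOE3 and 8.92, 7.83, 8.39, 7.53 and 8.35 in APOE4. Replicates 1, 3 and 5 of APOE4 were again above every APOE3 animal, which lay between 7.80 and 8.04. Replicate 4 of APOE4 was below all APOE3 animals, and replicate 2 lay within their range. The difference between the means was 0.24 log2 (SE 0.22; adjusted p = 0.797 in limma), 0.064 without APOE4 replicate 1 and 0.411 without APOE4 replicate 4. ATP citrate lyase, Acly, which makes cytosolic acetyl-CoA from citrate, read 9.82, 10.03, 10.22, 9.96 and 10.22 log2 in APOE3 and 10.63, 9.77, 10.59, 10.05 and 10.22 in APOE4. Replicates 1 and 3 of APOE4 were the highest and replicate 2 the lowest of all animals, and the difference was 0.20 log2 (SE 0.17; adjusted p = 0.777 in limma), 0.107 without APOE4 replicate 1 and 0.321 without APOE4 replicate 2. Further tested probe sets of Acly gave 0.17 log2 (SE 0.19) and 0.44 log2 (SE 0.29). The second carboxylase gene Acacb, whose product sits at mitochondria, was at 0.24 (SE 0.36), the mitochondrial citrate carrier gene Slc25a1 at 0.08 (SE 0.14) and the cytosolic acetyl-CoA synthetase gene Acss2 at -0.08 (SE 0.30), each a log2 difference.

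Of the cofactors and regulators of this step, Mid1ip1, which encodes a protein that promotes polymerisation of acetyl-CoA carboxylase, read 7.72, 8.68, 7.35, 7.83 and 8.45 log2 in APOE3 and 9.49, 8.38, 8.49, 7.37 and 8.56 in APOE4. APOE4 replicate 1 alone lay above the APOE3 range, and the difference was 0.45 log2 (SE 0.36; adjusted p = 0.763 in limma). It was 0.197 without that animal and 0.727 without APOE4 replicate 4. Its relative Thrsp, the thyroid hormone responsive Spot 14 gene, read 11.34, 9.57, 10.18, 10.09 and 11.34 in APOE3 and 11.85, 11.12, 11.30, 8.81 and 10.80 in APOE4. The genotypes overlapped widely, with a range of 3.04 log2 over the 10 animals and a difference of 0.27 log2 (SE 0.54) that was -0.001 without APOE4 replicate 1 and 0.76 without APOE4 replicate 4. Malic enzyme, Me1, a source of NADPH for the synthase, read 10.97, 7.77, 9.56, 9.19 and 9.43 in APOE3, so that both the highest and the lowest animal carried APOE3. In APOE4 it read 10.19, 10.04, 9.78, 9.12 and 9.81, and the difference was 0.41 log2 (SE 0.46; adjusted p = 0.848 in limma). It was 0.003 without APOE3 replicate 2 and 0.802 without APOE3 replicate 1.

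**Figure D3:**
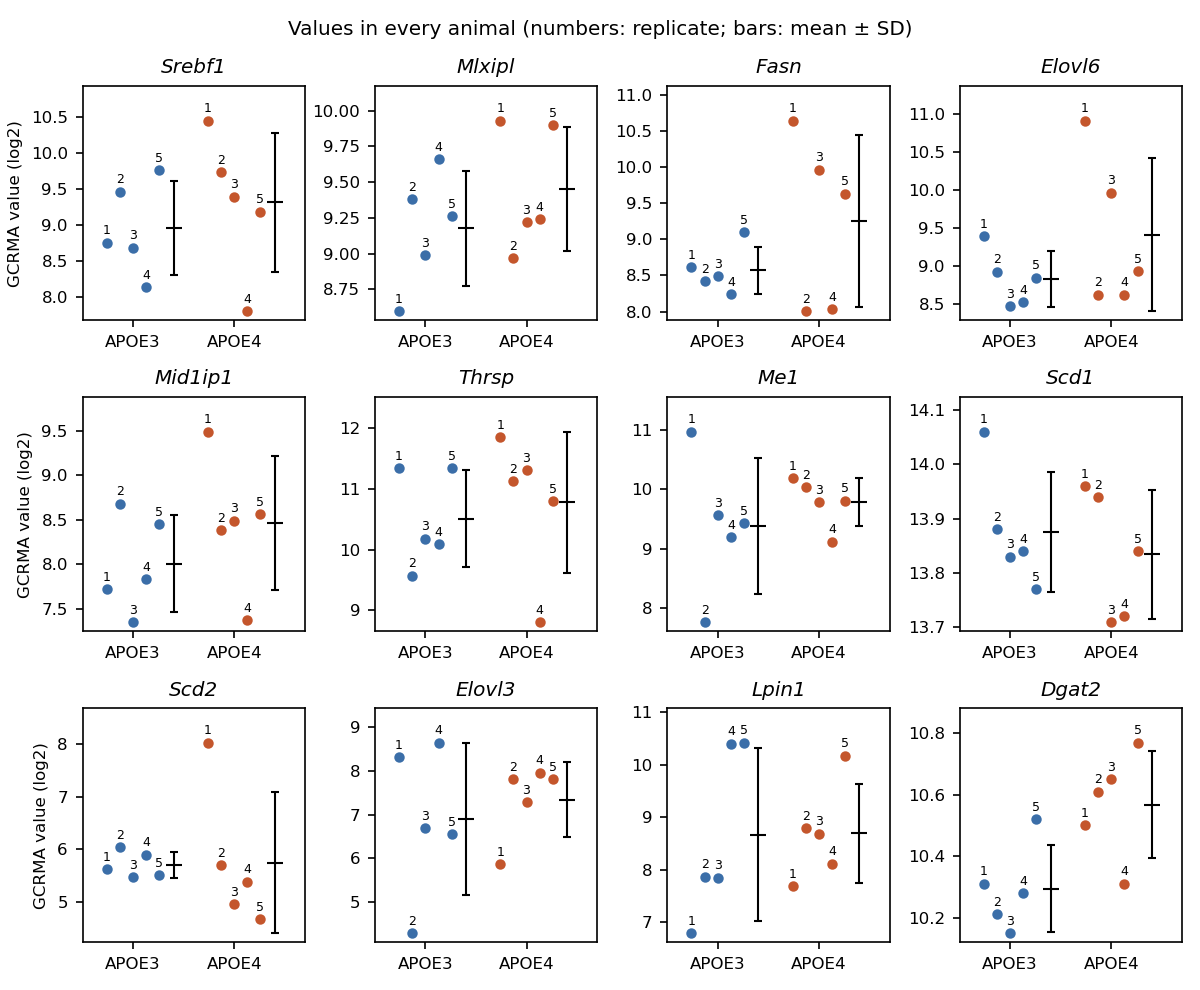
GCRMA value (log2) of 12 members in every animal, APOE3 in blue and APOE4 in orange, with the replicate number beside each point and bars for the mean ± SD (n = 5 each); each panel has its own axis, which does not start at 0. Fasn and Elovl6 spread upward in APOE4 through replicates 1 and 3, while Lpin1 and Elovl3 spread in both genotypes.

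In chain elongation, Elovl6, which extends palmitate to stearate, read 9.39, 8.92, 8.47, 8.52 and 8.84 log2 in APOE3 and 10.91, 8.62, 9.96, 8.62 and 8.93 in APOE4. Replicates 1 and 3 of APOE4 lay above the APOE3 range and the other 3 within it. The difference was 0.58 log2 (SE 0.41), 1.5-fold, with an adjusted p of 0.736 in limma, and without APOE4 replicate 1 it was 0.206. A further probe set of Elovl6 gave 0.77 log2 and a correlation of 0.99 with the first over the 10 animals. Elovl3, an elongase of saturated and monounsaturated very long chains, had the widest spread of the tested members at their brightest probe sets. It read 8.31, 4.29, 6.69, 8.65 and 6.56 in APOE3 and 5.86, 7.81, 7.29, 7.96 and 7.81 in APOE4, all 5 APOE4 animals lying within the APOE3 range. Its difference of 0.45 log2 (SE 0.74) became -0.206 without APOE3 replicate 2, the animal at 4.29.

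The remaining elongation genes had small mean differences at their brightest probe sets. Elovl2 and Elovl5, which act on polyunsaturated chains, differed by -0.07 log2 (SE 0.12) and -0.06 (SE 0.12), so that their 95% intervals, -0.35 to 0.20 and -0.31 to 0.19, leave out a change of 0.5 log2 in either direction. Elovl1, which makes very long saturated chains, was at 0.07 (SE 0.17). The genes of the shared steps of the elongation cycle, Hsd17b12 for the ketoacyl reductase and Tecr for the enoyl reductase, were at 0.10 (SE 0.18) and 0.15 (SE 0.18). Further tested probe sets gave 0.29 (SE 0.32) for Hsd17b12 and 0.24 (SE 0.18) for Tecr. Those of Elovl1 gave -0.07 and 0.15, and that of Elovl5 gave 0.01.

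Among the desaturases, Scd1, which makes oleate and palmitoleate and is the main liver form, read 14.06, 13.88, 13.83, 13.84 and 13.77 log2 in APOE3 and 13.96, 13.94, 13.71, 13.72 and 13.84 in APOE4. The values were almost level, with a difference of -0.04 log2 (SE 0.09, 95% interval -0.24 to 0.17; adjusted p = 0.934 in limma). This probe set lay above 99.95% of all probe sets, near the top of the arrays, whose maxima were between 14.59 and 14.78. A second Scd1 probe set with a mean of 10.43 differed by -0.22 log2 (SE 0.33) and ranged from 9.52 to 11.68, highest in APOE3 replicate 1. Scd2, a form known mainly from other tissues and from early life, read 5.63, 6.04, 5.47, 5.90 and 5.51 in APOE3 and 8.02, 5.70, 4.96, 5.39 and 4.68 in APOE4. Replicate 1 of APOE4 stood far above the other 9 animals, while 3 of the 5 APOE4 animals lay below the whole APOE3 range. The difference of 0.04 log2 (SE 0.52) became -0.531 without that animal (adjusted p = 0.673 in limma). In the same animal Adipoq, the adiponectin gene of adipocytes, read 3.60 log2 against at most 1.69 in the other 9, still under the near-background level. The other adipocyte markers were not highest there: Lep read 1.5 against up to 1.66, Retn 2.25 against up to 2.49 and Fabp4 9.51 against up to 9.78, these highest values all in APOE3 replicate 1. The part of such cells in the Scd2 value was not tested. The polyunsaturated fatty acid desaturase genes Fads1 and Fads2 were at -0.10 (SE 0.18) and 0.06 (SE 0.20). Further tested probe sets of Fads2 gave 0.02 and -0.06.

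**Figure D4:**
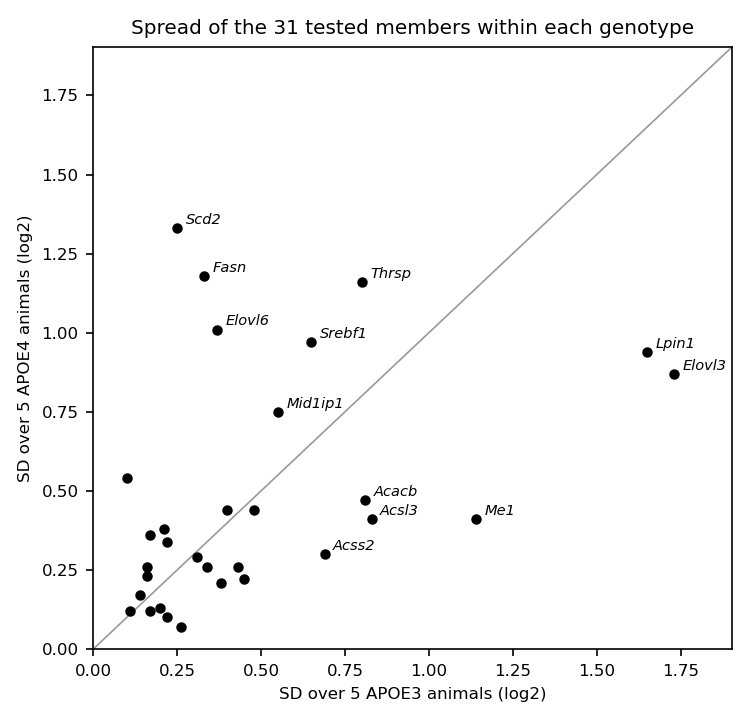
SD of each tested member over the 5 APOE3 animals (horizontal, log2) against the SD over the 5 APOE4 animals (vertical, log2), with a line of equality; members above 0.6 in either genotype are named. Scd2, Fasn and Elovl6 lie far above the line and Lpin1, Elovl3 and Me1 far below it, and 15 of the 31 members lie above it.

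In glycerolipid assembly the last step gave the only member with an unadjusted p under 0.05. Dgat2, which joins the third acyl chain to diacylglycerol and is the main liver enzyme for newly made fatty acids, read 10.31, 10.21, 10.15, 10.28 and 10.52 log2 in APOE3 and 10.50, 10.61, 10.65, 10.31 and 10.77 in APOE4. Replicates 2, 3 and 5 of APOE4 lay above all APOE3 animals and replicates 1 and 4 within their range. The difference was 0.27 log2 (SE 0.11, 95% interval 0.03 to 0.51), 1.21-fold, with an adjusted p of 0.584 in limma. Across the alternatives tried it lay between 0.215 and 0.337, the smallest adjusted p being 0.428. A further probe set gave 0.30 log2 (SE 0.18). Dgat1, whose product carries out the same reaction, was at 0.08 (SE 0.13), with a 95% interval from -0.20 to 0.36.

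The phosphatidate phosphatase gene Lpin1, whose product makes diacylglycerol and is known to respond to fasting, read 6.80, 7.87, 7.85, 10.40 and 10.42 log2 in APOE3 and 7.69, 8.79, 8.69, 8.12 and 10.17 in APOE4. Replicates 4 and 5 of APOE3 and replicate 5 of APOE4 lay at 10.17 or more, and the other 7 animals at 8.79 or less. The genotype means were nearly equal, with a difference of 0.02 log2 (SE 0.72), but the interval from -1.57 to 1.62 is wide. A further Lpin1 probe set gave 0.20 log2 (SE 0.84) and had a correlation of 0.99 with the first over the 10 animals. It spread more widely, with a within-genotype SD of 1.567 against 1.343 at the brightest probe set. The related gene Lpin2 was at -0.02 log2 (SE 0.26), and its further tested probe sets gave 0.04 and 0.07.

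Acsl3, which encodes an acyl-CoA synthetase found on lipid droplets and endoplasmic reticulum, read 5.99, 7.39, 6.97, 5.27 and 6.37 log2 in APOE3 and 7.46, 6.85, 6.76, 6.31 and 6.75 in APOE4. The APOE3 animals spread more widely (SD 0.83) than the APOE4 animals (SD 0.41), with the genotypes overlapping, and the difference was 0.43 log2 (SE 0.36; adjusted p = 0.777 in limma). It was 0.145 without APOE3 replicate 4 and 0.674 without APOE3 replicate 2. Acsl5, an acyl-CoA synthetase linked to triglyceride synthesis in liver, was at 0.25 (SE 0.18), or 0.146 without APOE3 replicate 2 and 0.402 without APOE3 replicate 1. Gpam, the mitochondrial glycerol-3-phosphate acyltransferase that opens the pathway, was at 0.11 (SE 0.12), and the acyltransferase genes Agpat2 and Agpat3, of the next step, were at 0.18 (SE 0.20) and 0.04 (SE 0.11). Further tested probe sets of Agpat3 gave -0.07, -0.01 and 0.02. Their correlations with the brightest over the animals were 0.31, 0.35 and 0.55.

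Both members that were not tested lay near background. Mogat1, a monoacylglycerol acyltransferase gene, was under 4 in 9 of the 10 animals and at 6.19 log2 in APOE3 replicate 1. Pnpla3, whose product is a lipid droplet protein, lay between 3.03 and 3.42 in APOE3 and between 3.36 and 4.14 in APOE4, with 1 array at or above 4, so no fold is given.

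The level of Fasn was compared with that of each of the other 30 tested members over the 10 animals, to describe which genes varied together. Pearson's r was above 0 for 25 of the 30, with a median of 0.44. After Benjamini-Hochberg adjustment over the 30 relations, 3 passed in a two-sided permutation test of 100000 resamples. The same shares over all tested probe sets were not computed, so these counts are not read as particular to the pathway. Acaca had r = 0.96 (permutation p = 1e-05, the smallest these resamples can give, adjusted p = 0.0003) and a Spearman rho of 0.96 (permutation p = 3e-05). For Acly r was 0.88 (permutation p = 0.00066, adjusted 0.0099) and rho 0.77 (permutation p = 0.012, adjusted 0.15). For Elovl6 r was 0.86 (permutation p = 0.0026, adjusted 0.026) and rho 0.76 (permutation p = 0.015, adjusted 0.15). All arrays were normalized together and the genes share each animal's RNA, which a relation of this kind also reflects.

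The relation of Fasn with Acaca passed with each animal left out in turn, r lying between 0.92 and 0.96, while Acly and Elovl6 passed in 8 of the 10 cases and not without APOE4 replicate 1 or without APOE4 replicate 3. Over these cases r lay between 0.81 and 0.91 for Acly (highest adjusted permutation p 0.1) and between 0.72 and 0.92 for Elovl6 (highest adjusted permutation p 0.22). Without APOE4 replicates 1 and 3, the animals farthest from the Fasn median at 10.64 and 9.96 log2, r was 0.89 for Acaca (exact permutation p = 0.0012, n = 8). It was 0.62 for Acly (exact permutation p = 0.096, n = 8) and 0.41 for Elovl6 (exact permutation p = 0.31, n = 8). The calls for these 2 genes were thus not kept without those animals, while r stayed above 0. Leaving out the animals farthest from the median also narrows the range of Fasn and lowers n, which by itself weakens such a test. On deviations from the genotype means, r was 0.95 for Acaca, 0.86 for Acly and 0.83 for Elovl6, and the same 3 passed (adjusted permutation p of 0.0003, 0.022 and 0.022). Those p-values are approximate, because the deviations were permuted across genotypes whose spread differed, with a Fasn SD of 0.33 in APOE3 and 1.18 in APOE4. Within APOE3 alone r was 0.75 for Acaca, 0.44 for Acly and 0.30 for Elovl6, and within APOE4 0.97, 0.93 and 0.89, with only 5 animals each and no test.

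Over all animals the factor genes had a lower r with Fasn than Acaca, Acly and Elovl6, without a test of the difference. Srebf1 had r = 0.64 (permutation p = 0.047, adjusted 0.23) and rho 0.45 (permutation p = 0.19), and Mlxipl r = 0.54 (permutation p = 0.11, adjusted 0.26) and rho 0.39 (permutation p = 0.26). Mid1ip1 had r = 0.74 (permutation p = 0.015, adjusted 0.12) and Thrsp r = 0.66 (permutation p = 0.036, adjusted 0.22). For Scd1, whose probe set lies near the top of the range, r was 0.01 (permutation p = 0.98) and rho -0.05. Lpin1 had r = 0.02 and Lpin2 r = -0.39 (permutation p = 0.26). The order of the factor genes and the called genes depended on the animals. With each animal left out in turn, r lay between 0.42 and 0.82 for Srebf1, which passed in 1 of the 10 cases. For Mlxipl it lay between 0.31 and 0.67, and 0 cases passed. Mid1ip1 passed in 2 cases and Acss2 in 1. Within APOE3 alone, r was 0.76 for Srebf1 and -0.29 for Mlxipl, beside 0.75 for Acaca, 0.44 for Acly and 0.3 for Elovl6. Within APOE4 alone, it was 0.63 for Srebf1 and 0.74 for Mlxipl, beside 0.97, 0.93 and 0.89 for those genes. Leaving out APOE4 replicates 1 and 3 gave 0.38 for Srebf1, 0.44 for Mlxipl, 0.89 for Acaca, 0.62 for Acly and 0.41 for Elovl6.

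**Figure D5:**
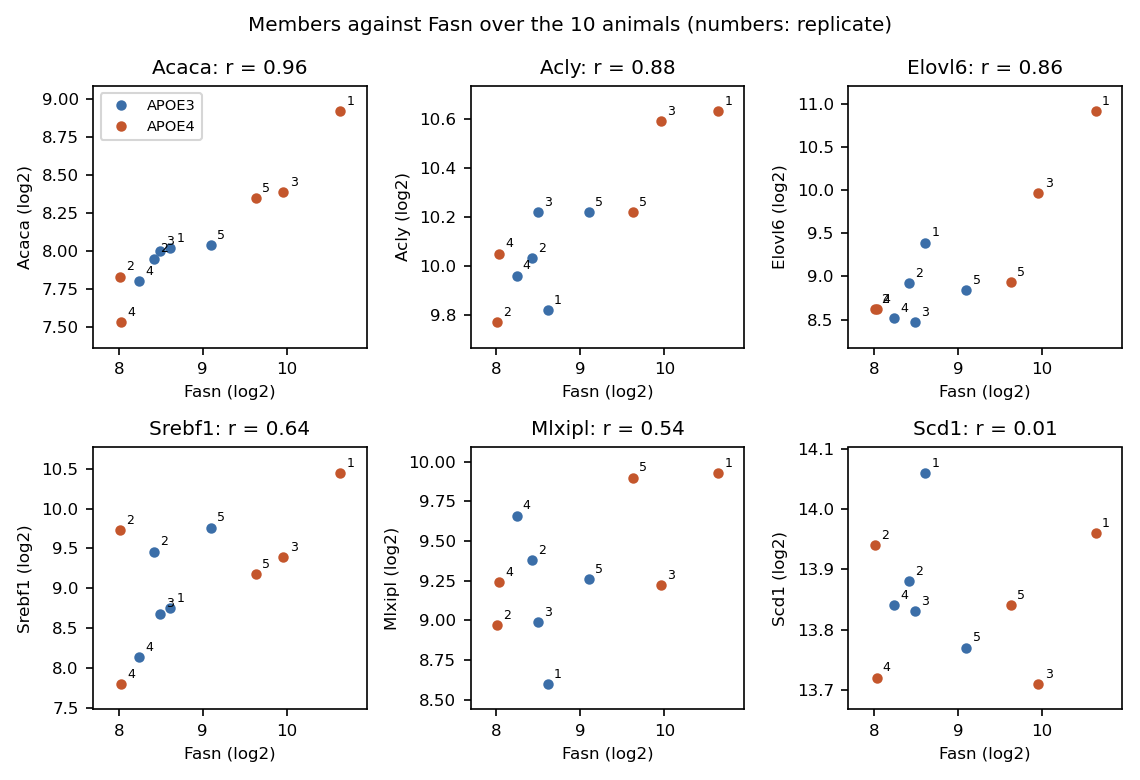
Log2 value of 6 members (vertical) against that of Fasn (horizontal) over the 10 animals, APOE3 in blue and APOE4 in orange, with replicate numbers and Pearson's r in each title. Acaca rises with Fasn along the whole range (r = 0.96), whereas in the Elovl6 panel APOE4 replicates 1 and 3 stand apart from the rest.

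Other genes of the pathway, listed by function, gave 0 calls at the adjusted threshold in limma. Of the genes that supply carbon and reducing power, 14 of 19 were tested, 12 above 0 and 2 below, with a median of 0.082. Among them Pdhb, a subunit of pyruvate dehydrogenase, differed by 0.26 log2 (SE 0.10; adjusted p = 0.584 in limma), and Dlat, another subunit, by 0.25 (SE 0.13). Pklr, the liver pyruvate kinase gene and a known ChREBP target, read 7.76, 6.89, 7.04, 6.99 and 7.83 log2 in APOE3 and 8.34, 7.53, 7.88, 7.23 and 7.93 in APOE4. Replicates 1, 3 and 5 of APOE4 were above every APOE3 animal, as with Fasn, and the difference was 0.48 (SE 0.25; adjusted p = 0.653 in limma).

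Among further regulators of SREBP and ChREBP, 15 of 17 were tested, 10 above 0 and 5 below, with a median of 0.075. The smallest p-values belonged to the genes of both proteases that release SREBP from the membrane, Mbtps2 at -0.25 log2 (SE 0.13) and Mbtps1 at 0.17 (SE 0.11), and to Usf2 at -0.15 (SE 0.12) (adjusted p between 0.677 and 0.755 in limma). For further elongation and desaturation genes 6 of 11 were tested, 3 on each side of 0, with Hacd2, a dehydratase of the elongation cycle, at 0.26 (SE 0.11; adjusted p = 0.593 in limma), Fads6 at -0.27 (SE 0.15) and Hacd3 at 0.13 (SE 0.11). Of further glycerolipid genes 8 of 15 were tested, 1 above 0 and 7 below, with a median of -0.021. The gene above 0 was Gpd1, which makes glycerol-3-phosphate for the backbone, at 9.37 ± 0.56 in APOE3 and 9.94 ± 0.21 in APOE4 (SD, n = 5 each), a difference of 0.57 log2 (SE 0.24; adjusted p = 0.588 in limma). Acsl4 was at -0.19 (SE 0.12) and Gpat4 at -0.17 (SE 0.21).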

How the data were processed

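Liver RNA of 5 APOE3 and 5 APOE4 mice was measured on Affymetrix Mouse430_2 arrays. The authors deposited log2 values, which were used unchanged. The submitters' processing notes name R 2.7.1 and, for GCRMA, version 2.12.1. Probe sets with several gene symbols or none were not used to name a gene. After removal of the control probe sets, the 14732 whose mean over the 10 arrays was 4 or more were fitted with limma 3.58.1 (lmFit and eBayes, R 4.3.3), as APOE4 minus APOE3, with Benjamini-Hochberg adjustment over all of them. Correlations and promoter motifs were computed in Python 3.11.15. The fit was tested on simulated data. The members and gene lists were chosen with earlier results of these data known. Values in every animal are given for Srebf1, Mlxipl, Fasn and Scd1, for members with an unadjusted p under 0.05, and for those with one of the 6 largest differences or the 6 largest SDs within genotype; Acaca and Acly were added after their correlation with Fasn was seen. From each list of other pathway genes, the 3 with the smallest p are named. The labels give no scan date or slide, so batch was not tested. Each array is 1 animal, and precision is limited by how many arrays there are. Alternatives covered the filter, normalization, array weights, choice of probe set, the replicate number as a block and each animal left out.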

Additional observations from a re-analysis of the deposited data

Results flagged for a closer look

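In 6 of 66 groups of 5 animals, over the 33 members and both genotypes, a single animal lay far from the other 4 by Dixon's criterion (critical value 0.71). The nominal rate of this criterion is 5% for independent, normally distributed groups. These groups share the same 10 arrays, and Mogat1 and Pnpla3 lie near background. The rate over all tested probe sets was not computed, so no excess is read from the count. APOE3 replicate 1 was high in Mogat1, Acss2 and Hsd17b12. Mogat1 was at 6.19 log2 against 2.01 to 2.57 in the other APOE3 animals. Acss2 was at 10.67 against 8.95 to 9.38, and Hsd17b12 at 11.82 against 10.96 to 11.18. In APOE4 replicate 1, Elovl1 was at 8.83 against 8.02 to 8.15 and Pnpla3 at 4.14 against 3.36 to 3.58. Tecr was low in APOE4 replicate 4, at 10.13 against 10.68 to 10.90.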

How the results depend on the processing

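No member passed the adjusted threshold in limma under any alternative, and the smallest adjusted p was 0.354, for Acsl5. The count at an unadjusted p under 0.05, 1 in the main setting, was 2 without the filter and 0 with quantile normalization, with median centring and with the mean of a gene's probe sets; with 1 animal left out it was 0 to 3. The adjusted count over all probe sets, 12, was 5 with a minimum mean of 6, and 8 to 14 with 1 animal left out. With the replicate number as a block it was 11, and 0 members passed; the deviations of same-numbered animals correlated at 0.186, 0.414 and 0.294 for numbers 2, 3 and 5 but at 0.00185 and -0.079 for 1 and 4, so not every pair exceeded 0.1 and the animals were not treated as paired. The members' median was 0.041 to 0.225, 22 to 26 were above 0, and 0 to 1 did not overlap with 1 animal left out. The count correlated with Fasn, 3, was 1 by Spearman's rho, 1 without the 2 farthest animals, and 1 to 5 with 1 animal left out (1 without APOE4 replicate 1 or 3, 5 without APOE4 replicate 2). Several small differences changed sign, and the cause was not tested. Array weights gave -0.193 for Scd2 and -0.048 for Lpin1. Quantile normalization gave -0.000 for Scd2, -0.031 for Lpin1 and -0.006 for Agpat3. Median centring gave -0.020, -0.034 and -0.018 for the same genes. The mean of probe sets gave -0.005 for Agpat3 and 0.032 for Lpin2. With 1 animal left out, the log2 difference ran from -0.445 to 0.461 for Lpin1, -0.531 to 0.304 for Scd2, -0.206 to 0.883 for Elovl3, -0.065 to 0.457 for Acacb, -0.204 to 0.225 for Acss2, -0.148 to 0.169 for Lpin2, -0.059 to 0.206 for Fads2, -0.077 to 0.149 for Elovl1, -0.134 to 0.006 for Elovl5, -0.162 to 0.016 for Elovl2, -0.072 to 0.007 for Scd1, -0.25 to 0.012 for Fads1, -0.004 to 0.099 for Agpat3, -0.002 to 0.288 for Agpat2 and -0.001 to 0.76 for Thrsp.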

Other observations

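Of 12 genes of the fasting response, 9 were tested, 5 above 0 and 4 below, with a median log2 difference of 0.148 and 0 past the adjusted threshold in limma (1 at an unadjusted p under 0.05). Pdk4, which encodes a kinase that switches off pyruvate dehydrogenase in fasting, read 7.86, 6.28, 9.03, 6.63 and 5.45 log2 in APOE3 and 8.55, 7.37, 8.54, 9.70 and 8.06 in APOE4. The genotypes overlapped, and the difference was 1.39 log2 (SE 0.63; adjusted p = 0.623 in limma). Cpt1a, the carnitine palmitoyltransferase gene of fatty acid oxidation, was at -0.24 (SE 0.15) and Ppargc1a at -0.40 (SE 0.30). G6pc, the glucose-6-phosphatase gene, named here after its values were seen, was at 6.37 log2 in APOE3 replicate 2 and between 9.46 and 11.89 in the other 9 animals; the same animal had the lowest Elovl3 (4.29) and Me1 (7.77).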
